A study of Mus musculus with 24 samples.

Results

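The comparison described here is the step across lights-on in mouse heart, from ZT23, the last hour of darkness, to ZT03, the third hour of light. Zeitgeber time (ZT) is given in hours after lights-on. The 8 hearts were chosen by their labelled time point, 4 at ZT03 and 4 at ZT23, out of 24 hearts taken at 6 time points 4 h apart. All 24 hearts came from male mice of 8 weeks homozygous for Clock delta 19, kept in 12 h of light and 12 h of darkness, and their labelled tissue is myocardium. The light phase holds ZT03, ZT07 and ZT11, and the dark phase ZT15, ZT19 and ZT23. Every group compared carries the mutation (wild types are not analysed here), and each difference is one of time of day within mutant animals. The question addressed is which cardiac transcripts change across the end of the night and the start of the day in these mice.

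CLOCK and BMAL1 (gene symbol Arntl) bind E-box sequences together and activate the Per, Cry and Nr1d genes, whose products then repress them, which gives a daily cycle. The Clock delta 19 allele skips an exon, and its protein binds DNA but activates poorly. In the heart, this loop and signals that follow feeding, activity, temperature and hormones set daily changes in metabolism, contraction and ion channels. Light does not reach the heart directly, and the lighting step also marks the change of a nocturnal animal from its active phase to rest.

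Each value is a deposited log value taken as log2 and centred by the authors on the feature's median over all arrays, so it says how far 1 heart lies from that gene's middle and holds no level. Differences are ZT03 minus ZT23, with the standard error (SE) of the fit. The test was limma's contrast test in a fit of all 24 hearts, with Benjamini-Hochberg adjustment over 22180 genes and a threshold of 0.05. The labels call the hearts biological replicates, so p-values measure the spread between separate hearts. In whole tissue, fewer cells of a type and less RNA per cell cannot be told apart.

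The array medians of the 24 hearts lay between -0.0080 and 0.0023, and the median SD within a time point was 0.087 over genes. The Clock feature had 0.09, 0.12, 0.06 and 0.0043 in the ZT03 hearts and -0.0041, 0.11, 0.13 and 0.11 in the ZT23 hearts. The groups overlapped, and since the labels do not say where in the transcript its probes lie, this checks nothing about the skipped exon. Centred values cannot show how strongly a marker was expressed, but the spacing of the deposited numbers separates a small brighter class, which holds 461 of the 22180 genes (2.08%). It held 12 of 13 cardiomyocyte markers, 1 of 13 fibroblast markers and 3 of 13 endothelial markers. It also held 3 of 11 smooth muscle and pericyte, 2 of 9 atrial, 2 of 11 adipocyte and 1 of 12 skeletal muscle markers. Of the macrophage, lymphocyte, neutrophil, erythroid, epicardial and neural markers it held 0.

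Between ZT03 and ZT23, 231 genes passed the test (1.04% of those tested). Of these, 196 were higher at ZT03 (0.884%) and 35 were lower (0.158%). At an unadjusted p under 0.05 there were 1698 higher and 935 lower genes, where 1109 in all would be reached by chance. The 196 higher genes had a median difference of 0.36, within 0.17 to 0.85, and the 35 lower genes one of -0.33, with sizes of 0.18 to 0.97. The median of all genes was -0.0041. Values of the ZT03 and ZT23 hearts did not overlap for 1672 genes (7.54%), which include 183 of the 196 higher genes and 35 of the 35 lower genes. The brighter class held 39 of the 196 higher genes (19.9%) and 9 of the 35 lower genes (25.7%). Leaving out 1 heart at a time gave 53 to 238 genes in place of 231, and 38 higher and 4 lower genes passed all 8 of these fits.

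**Figure D1:**
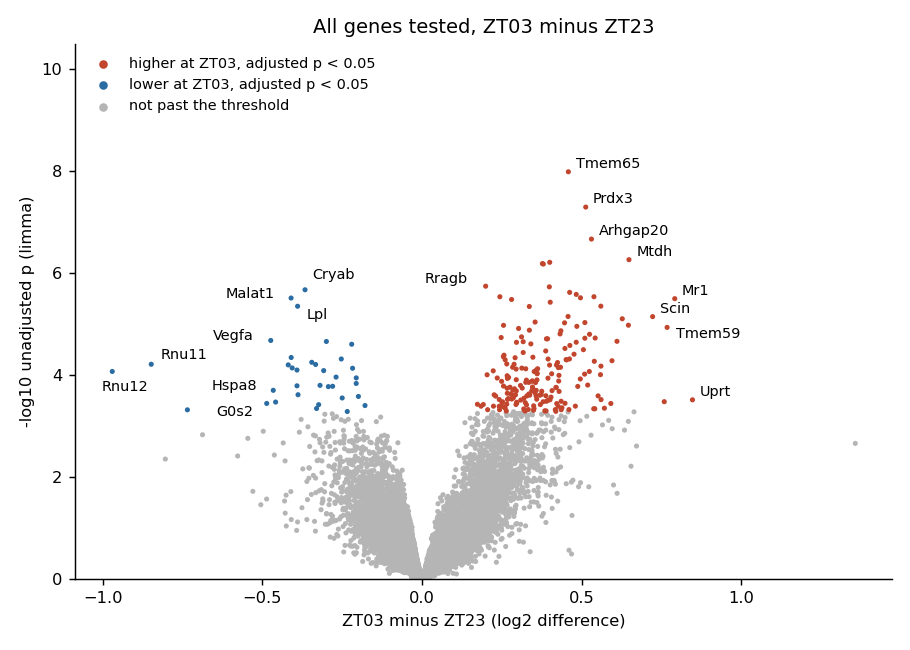
Each point is a gene, with its log2 difference ZT03 minus ZT23 on the horizontal axis and -log10 of limma's unadjusted p on the vertical axis; red and blue points passed the adjusted threshold of 0.05. The 196 higher genes outnumber the 35 lower ones, and the lower ones include the noncoding Rnu12 and Rnu11 at the far left.

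The gene with the smallest p was Tmem65, which codes for a membrane protein of the cardiomyocyte intercalated disc and of mitochondria. Its values were 0.27, 0.30, 0.40 and 0.21 in the ZT03 hearts, against -0.20, -0.14, -0.10 and -0.22 in the ZT23 hearts. All 4 hearts after lights-on were above all 4 before it, by 0.46 ± 0.05 on average (SE, limma, adjusted p = 0.00023). Prdx3, the mitochondrial peroxiredoxin that removes hydrogen peroxide, had 0.36, 0.33, 0.39 and 0.42 at ZT03 and -0.14, -0.09, -0.10 and -0.21 at ZT23. It was higher by 0.51 ± 0.06 (adjusted p = 0.00056), and the gap between the groups was several times the spread within them. Arhgap20 had 0.15, 0.28, 0.26 and 0.17 at ZT03, against -0.31, -0.22, -0.26 and -0.47 at ZT23, a difference of 0.53 ± 0.07 (adjusted p = 0.0016). For Mtdh (metadherin, an RNA-binding protein of the endoplasmic reticulum and nucleus) the ZT03 hearts had 0.15, 0.27, 0.11 and -0.19 and the ZT23 hearts -0.64, -0.43, -0.45 and -0.72. The lowest ZT03 heart, replicate 4, still lay above the highest ZT23 heart, and the difference was 0.65 ± 0.09 (adjusted p = 0.0021).

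The other genes among the 10 with the smallest p were Ddx1, Tmem243, Rragb, Cdc23 and Rnft1, all higher at ZT03, and Cryab, which was lower and is described with the chaperones. Ddx1, an RNA helicase, was higher by 0.38 ± 0.05 and Tmem243 by 0.38 ± 0.05. Cdc23, a subunit of the anaphase-promoting ubiquitin ligase, was higher by 0.40 ± 0.06, and Rnft1, a membrane ubiquitin ligase of the endoplasmic reticulum, by 0.48 ± 0.08. All of these passed limma's test in all 8 fits that leave out a heart. Rragb is a Rag GTPase that carries amino acid signals to the kinase mTORC1 at the lysosome. It had 0.16, 0.12, 0.14 and 0.11 at ZT03 and -0.10, -0.0013, -0.08 and -0.08 at ZT23. The difference was small, 0.20 ± 0.03, and the ZT03 hearts spread by an SD of only 0.023 (adjusted p = 0.0040).

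**Figure D2:**
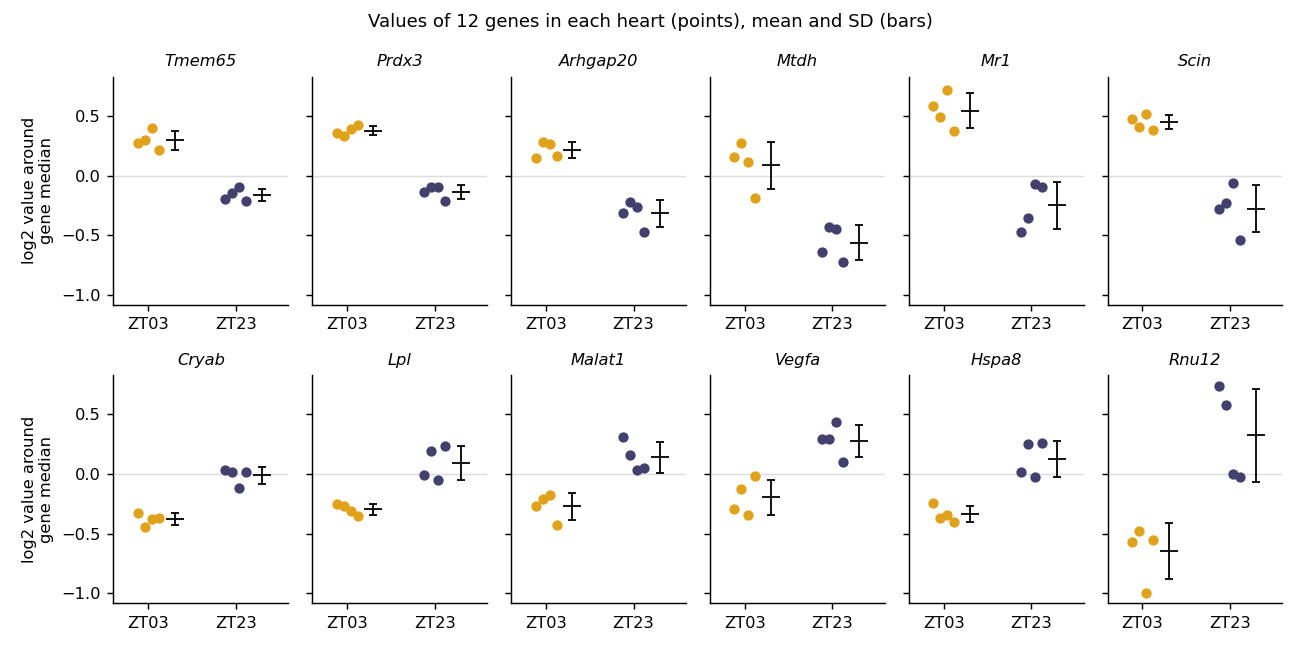
Log2 values around the gene's median in each of the 4 ZT03 hearts (yellow) and the 4 ZT23 hearts (violet) for 12 genes, with the mean and SD as black bars. In each of the 12 panels all 4 ZT03 hearts lie on one side of all 4 ZT23 hearts, above them in the upper row and below them in the lower row. The 12 were picked from the called genes, so this is a description.

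The E-box is the sequence that the CLOCK and BMAL1 proteins bind, so the promoters were searched for CACGTG, which reads the same on both strands. The heat shock element, D-box, cAMP element and ROR element were searched as well. RefSeq windows of 300 bases (250 before to 50 after a start site, GRCm38.p6) were at hand for 16990 of the genes measured. An E-box stood in the window of 20 of 153 higher genes (13.1%) and 3 of 22 lower genes (13.6%), against 9.19% of all measured genes and 7.15% of all 32851 windows. Of the 57 called named genes, 38 had a window. Among these, the windows of the 3 genes with an E-box and the smallest p are shown, chosen after their values were seen. Rragb lies on chromosome X, plus strand, chrX:153139708-153139962, Retreg1 on chr15:25942429-25942683, plus strand, and Atp5l on chr9:44920738-44920992, minus strand. The runs are written 5′ to 3′ from 250 bases before the start site to 5 after it, with each E-box in capitals.
Rragb: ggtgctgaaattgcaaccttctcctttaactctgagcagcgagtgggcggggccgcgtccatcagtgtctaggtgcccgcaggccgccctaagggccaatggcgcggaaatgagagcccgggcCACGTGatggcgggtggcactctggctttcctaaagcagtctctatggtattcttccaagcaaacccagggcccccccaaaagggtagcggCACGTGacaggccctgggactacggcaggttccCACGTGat
Retreg1: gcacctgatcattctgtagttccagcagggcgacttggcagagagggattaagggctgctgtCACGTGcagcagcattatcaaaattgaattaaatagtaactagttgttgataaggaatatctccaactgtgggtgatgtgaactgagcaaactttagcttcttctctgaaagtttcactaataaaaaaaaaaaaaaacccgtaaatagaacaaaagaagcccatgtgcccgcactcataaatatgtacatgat
Atp5l: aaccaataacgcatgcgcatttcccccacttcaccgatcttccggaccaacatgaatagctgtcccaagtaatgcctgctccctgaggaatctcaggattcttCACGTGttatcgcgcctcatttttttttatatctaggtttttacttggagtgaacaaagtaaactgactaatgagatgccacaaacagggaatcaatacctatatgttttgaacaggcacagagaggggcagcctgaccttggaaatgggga
The window of Rragb held 3 E-boxes, and those of Retreg1 (1 of its 4 windows) and Atp5l held 1 each. Atp5l had 0.37, 0.31, 0.18 and 0.01 at ZT03, against -0.29, -0.54, -0.14 and -0.24 at ZT23. Retreg1 had 0.20, 0.05, 0.37 and 0.20 at ZT03 and -0.56, -0.28, -0.01 and -0.36 at ZT23. In both genes every ZT03 heart was above every ZT23 heart, as in 183 of the 196 called higher genes. The heat shock element GAANNTTC, which also reads the same on both strands, stood in the windows of 8.50% of higher and 9.09% of lower genes, and in 8.18% of all measured genes. The other motifs rested on few genes. The D-box is TTAYRTAA, where Y is C or T and R is A or G. It stood in 3.27% of higher genes (5 of 153), 0% of lower and 1.68% of measured ones. The cAMP element TGACGTCA stood in 1.31% of higher genes (2 of 153), 9.09% of lower (2 of 22) and 2.65% of measured ones. For the ROR element these were 0%, 0% and 0.17%. These matches are letters in a window, and binding was not measured.

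None of the 22 measured core clock genes, out of 26 listed, passed limma's test between ZT03 and ZT23, where 1.04% of all genes did. At an unadjusted p under 0.05 there were 2, against 2633 of all 22180 genes. Both counts are near the shares of all genes and do not set this list apart. The median difference of the list was 0.011. Arntl, the partner of CLOCK, had 0.13, 0.35, 0.03 and 0.45 at ZT03 and 0.30, 0.25, 0.26 and 0.07 at ZT23, and the groups overlapped fully. Per1 had -0.26, -0.06, 0.01 and 0.35 at ZT03, against -0.21, -0.01, -0.58 and -0.29 at ZT23, a difference of 0.28 ± 0.18. Nr1d1, the repressor REV-ERB alpha, had -0.28, -0.04, -0.31 and -0.02 at ZT03 and -0.07, -0.40, 0.02 and -0.21 at ZT23. The repressor gene Nfil3 came nearest to the threshold. Its hearts did not overlap, with -0.10, 0.05, -0.10 and 0.07 at ZT03 and 0.28, 0.53, 0.16 and 0.11 at ZT23, and the difference was -0.29 ± 0.08 (limma, adjusted p = 0.085). The other core clock genes lay between -0.24 (Bhlhe40) and 0.26 (Nr1d2), and Dbp, a direct CLOCK target in wild-type tissue, was at 0.05 ± 0.12. Of 20 clock output genes, 0 passed the test and 2 had an unadjusted p under 0.05, Herpud1 at -0.33 ± 0.12 and Leo1 at -0.15 ± 0.07. These counts, too, are near the shares of all genes.

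Heat shock proteins and their partners keep other proteins folded, and their transcripts follow body temperature in several mouse tissues. Of 32 measured members, 3 passed the test, all lower at ZT03, against 0.158% of all genes called lower. The median of the list was -0.059 and 8 of the 32 differences were above 0. Lower members at an unadjusted p under 0.05 numbered 8 and higher ones 2, against 935 and 1698 of all genes. The higher ones were Hspb7 at 0.41 ± 0.10 (limma, adjusted p = 0.056) and Dnaja2 at 0.16 ± 0.05. Cryab, the small heat shock protein alpha-B-crystallin, which binds desmin and titin in cardiomyocytes, had -0.33, -0.44, -0.38 and -0.37 at ZT03, against 0.03, 0.01, -0.12 and 0.02 at ZT23. The hearts of the early day lay close together and below the others, by -0.37 ± 0.06 in the mean of its features (limma, adjusted p = 0.0040). Its 2 features differed in size, with -0.61 ± 0.12 and -0.13 ± 0.08. The smaller one is the feature in the brighter class and showed no clear change, so the mean rests mostly on the other. Hspa8, the constitutive chaperone Hsc70, had -0.24, -0.37, -0.34 and -0.40 at ZT03 and 0.02, 0.25, -0.02 and 0.26 at ZT23. Its difference was -0.47 ± 0.10 (adjusted p = 0.031), with 4 features at -0.64, -0.61, -0.54 and -0.08, and near-identical copies of this gene in the genome may share its probes. Hspa4, an exchange factor for Hsc70, was at -0.11, -0.01, -0.19 and -0.06 at ZT03, against 0.18, 0.08, 0.12 and 0.11 at ZT23, a smaller difference of -0.22 ± 0.04 (adjusted p = 0.019). Cryab passed in all 8 fits that leave out a heart, Hspa4 in 5 and Hspa8 in 1. In related lists limma called 0 genes, where it called 1.04% of all genes. Of 26 genes of endoplasmic reticulum stress and folding, 6 had an unadjusted p under 0.05, with Canx at -0.16 ± 0.05. Of 7 cold-inducible genes, 1 did, Srsf5 at 0.23 ± 0.09, and Cirbp was at 0.16 ± 0.08.

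Mitochondrial enzymes made up the list with the most called members. Of 31 measured genes of the TCA cycle and fatty acid oxidation, 4 were higher at ZT03 and 0 lower, against 0.884% of all genes called higher. At an unadjusted p under 0.05, 15 of the 31 were higher and 0 lower, against 1698 and 935 of all 22180 genes. The median of the list was 0.11. Idh3a, a subunit of isocitrate dehydrogenase, had 0.19, 0.16, 0.44 and 0.34 at ZT03 and -0.03, -0.05, 0.03 and -0.12 at ZT23, a difference of 0.32 ± 0.08 (limma, adjusted p = 0.041). Dlst, the succinyltransferase of the 2-oxoglutarate dehydrogenase complex, had 0.09, 0.17, 0.12 and 0.28 at ZT03, against -0.17, -0.08, 0.02 and -0.17 at ZT23 (0.27 ± 0.06). Dld, the dehydrogenase that this complex shares with pyruvate dehydrogenase, was higher by 0.22 ± 0.05, and Echs1, the hydratase of fatty acid oxidation, by 0.28 ± 0.06. In all 4 genes the groups did not overlap, as in 183 of the 196 called higher genes and 7.54% of all genes. Each of the 4 passed in only 2 to 4 of the 8 fits that leave out a heart. Pdha1, of pyruvate dehydrogenase itself, was at 0.25 ± 0.07 (adjusted p = 0.11).

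A few subunits of the respiratory chain passed, all higher at ZT03. In complex I, which takes electrons from NADH, 2 of 33 measured subunits were higher, against 0.884% of all genes. The median of the list was -0.016. At an unadjusted p under 0.05, 8 of the 33 were higher and 5 lower, against 1698 and 935 of all 22180 genes. Among the lower ones was Ndufb7 at -0.27 ± 0.08. Ndufs1, the largest subunit of complex I, had 0.09, 0.17, 0.23 and 0.13 at ZT03 and -0.08, -0.06, -0.08 and -0.13 at ZT23 (0.24 ± 0.04, limma, adjusted p = 0.0040). Ndufb5 had 0.24, 0.13, 0.14 and 0.17 at ZT03, against -0.19, -0.01, -0.19 and -0.19 at ZT23 (0.32 ± 0.06). In complexes II to V, 2 of 40 were higher and the median was 0.045. They were Uqcrc2, a core subunit of complex III, at 0.28 ± 0.04, and Atp5l, subunit g of the ATP synthase, at 0.52 ± 0.11. At an unadjusted p under 0.05, 9 of the 40 were higher and 5 lower. The lower ones included Sdhc at -0.33 ± 0.09 and Atp5k at -0.30 ± 0.08 (limma, adjusted p = 0.085 and 0.088). Atp5mpl (0.45 ± 0.08) and Atp5md (0.29 ± 0.06), small proteins of the ATP synthase that the list does not hold and that were named after their values were seen, were called higher as well. Ndufs1, Ndufb5 and Uqcrc2 passed in all 8 fits that leave out a heart, Atp5mpl in all 8, Atp5md in 6 and Atp5l in 3. Of 69 mitochondrial ribosome genes 1 passed, Mrpl42 (0.26 ± 0.06), in 2 of the 8 fits that leave out a heart. Among 30 antioxidant genes Prdx3 was the 1 that passed, while 10 were higher and 1 lower at an unadjusted p under 0.05, with a list median of 0.096.

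**Figure D3:**
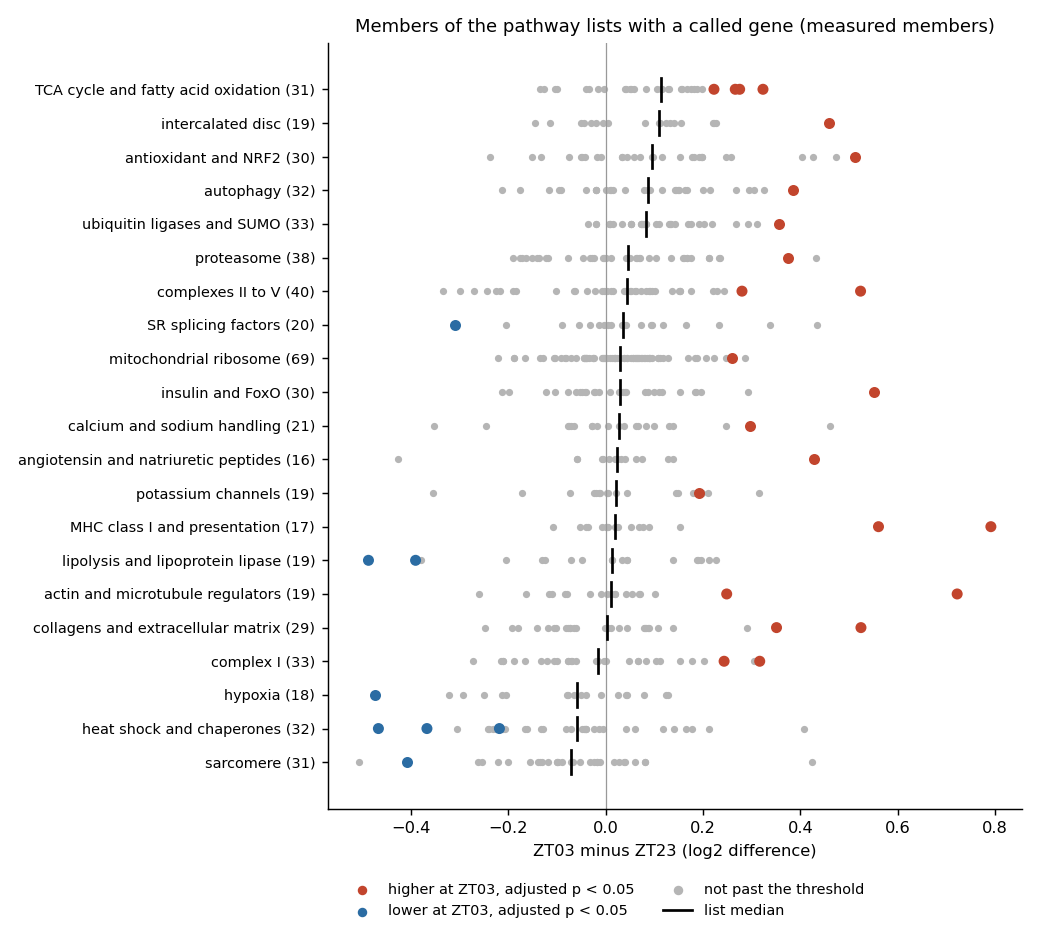
Log2 differences ZT03 minus ZT23 of the measured members of each pathway list that held a called gene, with the number of measured members in brackets, called members in red (higher) or blue (lower) and the list median as a black line. The TCA cycle and fatty acid oxidation list has 4 called members, all higher, and the heat shock list 3, all lower.

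The called genes of lipid release and uptake were lower. Of 19 lipolysis and lipoprotein lipase genes 2 were lower and 0 higher, against 0.158% and 0.884% of all genes, and the list median was 0.013. Lpl, the lipase that frees fatty acids from blood lipoproteins for the heart, had -0.25, -0.27, -0.31 and -0.35 at ZT03 and -0.01, 0.19, -0.05 and 0.24 at ZT23. Its difference was -0.39 ± 0.06 (limma, adjusted p = 0.0045), with features at -0.59 and -0.19, and it passed in all 8 fits that leave out a heart. G0s2, the inhibitor of adipose triglyceride lipase, had -0.30, -0.14, -0.35 and -0.29 at ZT03, against 0.50, 0.25, -0.11 and 0.22 at ZT23 (-0.49 ± 0.11, adjusted p = 0.042), and passed in 1 of the 8 fits. None of 23 genes of PPAR alpha and fasting passed limma's test, where 1.04% of all genes did, and 4 had an unadjusted p under 0.05. Among them was the largest difference of all named genes, Acot2, a mitochondrial acyl-CoA thioesterase, with 0.30, 0.49, 1.06 and 1.29 at ZT03 and -0.52, -0.27, -0.21 and -1.28 at ZT23. Its groups did not overlap, but its hearts spread widely (1.36 ± 0.39, adjusted p = 0.097). Of 29 genes of glucose use and glycogen 0 passed, with Pfkp at -0.34 ± 0.10, and of 21 genes of sterol and lipid synthesis 0 passed, with Nsdhl at 0.32 ± 0.08 and Acaca at 0.15 ± 0.05 (9 and 4 genes at an unadjusted p under 0.05).

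The called genes of the sarcomere and cardiomyocyte marker lists, 1 in each, were lower at ZT03, where 0.158% of all genes were called lower. Xirp1, which binds actin at the intercalated disc, was the 1 of 31 sarcomere genes called, with -0.53, -0.29, -0.33 and -0.33 at ZT03 and 0.24, 0.14, -0.10 and -0.13 at ZT23 (-0.41 ± 0.08, limma, adjusted p = 0.019). The list median was -0.071, within -0.51 to 0.42, and at an unadjusted p under 0.05, 5 sarcomere genes were lower and 1 higher. Of the 2 cytosolic creatine kinases, which buffer ATP, muscle Ckm had -0.34, -0.21, -0.40 and -0.16 at ZT03 and 0.29, 0.21, 0.01 and 0.07 at ZT23 (-0.42 ± 0.08). Brain-type Ckb, which is in neither list, had -0.27, -0.33, -0.51 and -0.02 at ZT03, against 0.31, 0.34, 0.02 and 0.03 at ZT23 (-0.46 ± 0.11). Xirp1 and Ckm passed in 4 of the 8 fits that leave out a heart and Ckb in 2. Ckm was the 1 of 13 cardiomyocyte markers that passed, and 12 of the 13 were at or below 0, with a median of -0.065. The mean over these 13 markers lay between -0.13 and 0.041 in the ZT03 hearts and between -0.044 and 0.16 in the ZT23 hearts, so the groups overlapped, and its part in the lower muscle and chaperone genes was not tested. Of 12 skeletal muscle markers 1 passed, again Ckm, and the list median was -0.077. Tmem65 was the 1 of 19 intercalated disc genes that passed, in the direction opposite to Xirp1, and the median of that list was 0.11.

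The lists of potassium channels, of calcium and sodium handling and of angiotensin and natriuretic peptides held 1 called gene each, all higher. Of all genes, 0.884% were called higher. The medians of these 3 lists were 0.021, 0.028 and 0.024, and their lowest differences -0.35, -0.35 and -0.43. At an unadjusted p under 0.05, 4 potassium channel genes were higher and 1 lower. For calcium and sodium handling, 4 were higher and 3 lower. Outside the lists, and named after their values were seen, the potassium channel gene Kcnn2 (0.39 ± 0.07) and the muscarinic receptor gene Chrm2 (0.35 ± 0.06) were also higher, and passed in 7 and all 8 of the fits that leave out a heart. Kcnj3, the inwardly rectifying channel of the acetylcholine-activated potassium current, had 0.02, 0.08, 0.20 and 0.05 at ZT03, against -0.14, -0.12, 0.02 and -0.17 at ZT23 (0.19 ± 0.05), and was the 1 of 19 potassium channel genes that passed. Cacna2d1, the alpha-2-delta subunit of the L-type calcium channel, had 0.26, 0.31, 0.28 and -0.0092 at ZT03 and -0.17, -0.02, -0.03 and -0.14 at ZT23 (0.30 ± 0.07), 1 of 21 calcium and sodium handling genes. Both passed in 1 of the 8 fits that leave out a heart. Agtr1a, the angiotensin II receptor, had 0.24, 0.15, 0.18 and 0.25 at ZT03, against -0.18, -0.21, -0.14 and -0.38 at ZT23. Its ZT03 hearts were close together, and the difference was 0.43 ± 0.10 (limma, adjusted p = 0.032), also in 1 of the 8 fits. Of the 19 actin and microtubule regulators, the actin-severing protein gene Scin had 0.47, 0.41, 0.51 and 0.39 at ZT03 and -0.28, -0.23, -0.06 and -0.54 at ZT23. It was higher by 0.72 ± 0.12 (adjusted p = 0.0066), and Cfl2, the muscle cofilin, by 0.25 ± 0.06, with hearts that overlapped.

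Vegfa, the endothelial growth factor induced by low oxygen, was the 1 of 18 hypoxia genes that passed, where 0.158% of all genes were called lower. It had -0.29, -0.13, -0.34 and -0.02 at ZT03 and 0.29, 0.29, 0.43 and 0.10 at ZT23, a difference of -0.47 ± 0.09 (limma, adjusted p = 0.010). Markers of endothelial cells did not pass (0 of 13 called, 2 at an unadjusted p under 0.05, median -0.069). In the list of collagens and extracellular matrix 2 of 29 were higher, the small proteoglycans Ogn and Dcn, against 0.884% of all genes. Ogn had 0.43, 0.34, 0.56 and 0.0044 at ZT03, against -0.39, -0.13, -0.23 and -0.02 at ZT23 (0.52 ± 0.09), and Dcn was higher by 0.35 ± 0.07. ZT03 replicate 4 was the lowest of its group in both. Dcn is also a fibroblast marker. Of the 13 fibroblast markers 10 were above 0, 1 passed and the median was 0.086, and their mean lay between 0.031 and 0.13 at ZT03 and between -0.050 and 0.072 at ZT23. The part of the fibroblast share in the difference of these 2 genes was not tested. Macrophage markers had a median of 0.078 with 0 of 13 called (2 at an unadjusted p under 0.05, Cd14 at 0.28 ± 0.10 and Csf1r at 0.28 ± 0.11). Among the other marker lists (atrial, smooth muscle, lymphocyte, neutrophil, erythroid, adipocyte, epicardial and neural), 0 genes passed and 4 had an unadjusted p under 0.05. The atrial list had a mean of -0.17 to 0.28 at ZT03 and of -0.12 to 0.16 at ZT23.

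The largest differences among the higher genes were spread over several functions. Uprt, related to uracil phosphoribosyltransferases, was highest at 0.85 ± 0.20, but its hearts overlapped narrowly, with 0.59, 0.46, 0.82 and 0.08 at ZT03 and -0.99, -0.38, -0.16 and 0.09 at ZT23. Mr1, an MHC class I-like molecule that shows vitamin B metabolites to MAIT lymphocytes, had 0.58, 0.49, 0.72 and 0.38 at ZT03, against -0.47, -0.36, -0.07 and -0.09 at ZT23 (0.79 ± 0.13, limma, adjusted p = 0.0040). Fcgrt, the neonatal Fc receptor, was higher by 0.56 ± 0.13. Mr1 and Fcgrt were the 2 called of 17 genes of MHC class I and presentation, against 0.884% of all genes called higher. The median of that list was 0.019. Several of the 12 largest differences were in genes of membrane and transport proteins. They are Tmem59 of the Golgi and endosomes (0.77 ± 0.13), the complement inhibitor Cd59a (0.76 ± 0.18), the copper transporter Slc31a2 (0.59 ± 0.14) and the vesicle SNARE Vamp7 (0.57 ± 0.14), whose hearts overlapped. Fbxo8 (0.65 ± 0.11), Mospd1 (0.63 ± 0.11), Cript (0.61 ± 0.11) and Aasdhppt (0.59 ± 0.12), which activates carrier proteins of fatty acid synthesis, complete the 12 with Mtdh and Scin. Mr1, Tmem59, Scin, Fbxo8, Mospd1 and Mtdh passed in all 8 fits that leave out a heart, Slc31a2 and Vamp7 in 1 and Cd59a in 2.

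Each of 3 lists of protein turnover held 1 called gene, all higher, where 0.884% of all genes were called higher. They were Atg12, which tags the growing autophagosome (0.38 ± 0.09, 1 of 32 autophagy genes), Psma1 of the proteasome core (0.37 ± 0.08, 1 of 38) and the cullin Cul4b (0.36 ± 0.08, 1 of 33 ubiquitin ligase and SUMO genes). At an unadjusted p under 0.05, 10 of the 32 autophagy genes were higher and 1 lower, against 1698 and 935 of all 22180 genes, and the medians of the 3 lists were 0.086, 0.046 and 0.083. Cited2, a transcriptional regulator that FoxO factors induce, was the 1 of 30 insulin and FoxO genes called, with 0.28, 0.10, 0.01 and 0.42 at ZT03 and -0.44, -0.48, -0.12 and -0.35 at ZT23 (0.55 ± 0.12, limma, adjusted p = 0.035). Atg12, Cul4b and Cited2 passed in 1 of the 8 fits that leave out a heart and Psma1 in 2.

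The largest differences among the lower genes were those of noncoding RNAs. Rnu12 and Rnu11 are the small nuclear RNAs U12 and U11, which recognise the branch point and the 5′ splice site of the minor class of introns. Rnu12 had -0.57, -0.48, -0.99 and -0.55 at ZT03, against 0.74, 0.58, 0.0027 and -0.03 at ZT23, and Rnu11 had -0.41, -0.52, -1.09 and -0.27 at ZT03, against 0.61, 0.30, 0.08 and 0.11 at ZT23. In both, ZT23 replicates 1 and 2 were high, ZT03 replicate 3 was lowest, and the groups did not overlap. The differences were -0.97 ± 0.20 and -0.85 ± 0.17 (limma, adjusted p = 0.020 and 0.018), and these were 2 of 6 small nuclear RNAs measured. Rnu12 passed in 5 and Rnu11 in 6 of the 8 fits that leave out a heart. Rpph1, the RNA of ribonuclease P, also had ZT23 replicates 1 and 2 above the other hearts, with -0.37, -0.29, -0.72 and -0.62 at ZT03 and 0.47, 0.46, -0.02 and 0.02 at ZT23 (adjusted p = 0.048, in 1 of the 8 fits that leave out a heart). Malat1, a long noncoding RNA of nuclear speckles, had -0.27, -0.21, -0.18 and -0.43 at ZT03, against 0.31, 0.16, 0.04 and 0.05 at ZT23 (-0.41 ± 0.06, adjusted p = 0.0040). Its 2 features were at -0.53 and -0.29, and it passed in all 8 fits. Of 1995 long noncoding RNAs measured, 3 were higher and 2 lower, against 0.884% and 0.158% of all genes. Mhrt, named after its values were seen, was the other lower one and is transcribed antisense to the myosin gene Myh7. It was at -0.33 ± 0.08 (limma, adjusted p = 0.047) and passed in 1 of the 8 fits. Luc7l3, a splicing factor with an arginine- and serine-rich domain, was the 1 of 20 genes of its list that passed, at -0.31 ± 0.06. It passed in 4 of the 8 fits. Small nucleolar RNAs did not pass (limma, 0 of 81, where 1.04% of all genes were called). Of them, 17 had an unadjusted p under 0.05, 13 of these higher.

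Of 478 microRNA genes measured, 1 passed, against 1.04% of all genes. It was Mir677 on chromosome 10, named after its values were seen. Its 2 mature sequences in RefSeq (GRCm38.p6) are shown with the seed, bases 2 to 8, in capitals.
mmu-miR-677-5p: uUCAGUGAugauuagcuucuga
mmu-miR-677-3p: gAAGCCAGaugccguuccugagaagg
The gene had 0.19, 0.38, 0.26 and 0.34 at ZT03, against 0.08, -0.18, -0.24 and -0.16 at ZT23, so that every ZT03 heart was above every ZT23 heart (0.42 ± 0.09, limma, adjusted p = 0.029, in 2 of the 8 fits that leave out a heart). The array label does not say whether the hairpin or a mature strand was detected.

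The remaining lower genes of the 12 largest differences were Aldh2 and Pkdcc. Pkdcc, a secreted tyrosine kinase, had 0.03, -0.28, -0.10 and -0.25 at ZT03 and 0.05, 0.29, 0.38 and 0.25 at ZT23 (-0.39 ± 0.09). Aldh2, the mitochondrial aldehyde dehydrogenase, averaged -0.39 ± 0.08, but its 2 features went in opposite directions, -1.01 and 0.23, so the mean stands for neither of them.

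Several stimulus-responsive lists held no called gene, where 1.04% of all genes were called. Of 23 glucocorticoid response genes 0 passed in limma's test (2 at an unadjusted p under 0.05), although Zbtb16 had -0.84, -0.67, -1.02 and -0.42 at ZT03 and 0.69, -0.0049, -0.22 and -0.20 at ZT23 with no overlap (-0.80 ± 0.25, adjusted p = 0.14). Mt1, a metallothionein, was at -0.24 ± 0.08. Of 26 immediate early genes 0 passed (4 at an unadjusted p under 0.05), with a list median of -0.10. Btg2 was at -0.69 ± 0.19 and ZT23 replicate 1 was far above the others, at 1.20 against 0.19, 0.14 and -0.17, and Ier3 was at -0.43 ± 0.12. Of 21 interferon-induced genes 0 passed (2 at an unadjusted p under 0.05, Bst2 at -0.50 ± 0.13 and Ifit3 at -0.41 ± 0.16). Translation factors (24 measured, 6 at an unadjusted p under 0.05, Eif3a at -0.22 ± 0.06 and Eif4a2 at 0.23 ± 0.07) and iron genes (13 measured, 3 at an unadjusted p under 0.05, Slc40a1 at 0.53 ± 0.14 and Ftmt at -0.12 ± 0.04) held 0 called genes as well.

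The called genes were then followed through all 6 time points. Since they were called for their difference between ZT03 and ZT23, the places of these 2 means are a description. ZT03 was the highest of the 6 means for 187 of the 196 higher genes, and the lowest mean was at ZT23 for 113, at ZT11 for 52 and at ZT15 for 27. ZT03 was the lowest of the 6 means for 32 of the 35 lower genes, and the highest was at ZT23 for 22 and at ZT11 for 8. Over the 196 higher genes, the median in a heart was 0.21, 0.22, 0.26 and 0.17 at ZT03, between 0.059 and 0.15 at ZT07, between -0.16 and -0.0026 at ZT11, between -0.13 and 0.00 at ZT15, between -0.030 and 0.081 at ZT19, and -0.19, -0.12, -0.10 and -0.14 at ZT23. Over the 35 lower genes it was -0.24, -0.15, -0.20 and -0.17 at ZT03, between -0.12 and -0.065 at ZT07, between -0.0025 and 0.080 at ZT11, between 0.051 and 0.088 at ZT15, between -0.033 and 0.039 at ZT19, and 0.17, 0.17, 0.079 and 0.12 at ZT23. The ZT07 and ZT19 hearts have no part in that difference, though they entered the spread of the fit. The ZT07 mean was above the ZT19 mean for 161 of the 196 higher genes and below it for 32 of the 35 lower genes, against 48.8% of all genes with a higher ZT07 mean. These genes share the same hearts and are not replicates. The heart medians of ZT07 and ZT19 overlapped for the higher genes and not for the lower ones. The step from ZT03 to ZT07 alone gave 0 genes past limma's test (802 at an unadjusted p under 0.05), and the next one, ZT11 minus ZT07, gave 14 higher and 29 lower genes (2489).

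**Figure D4:**
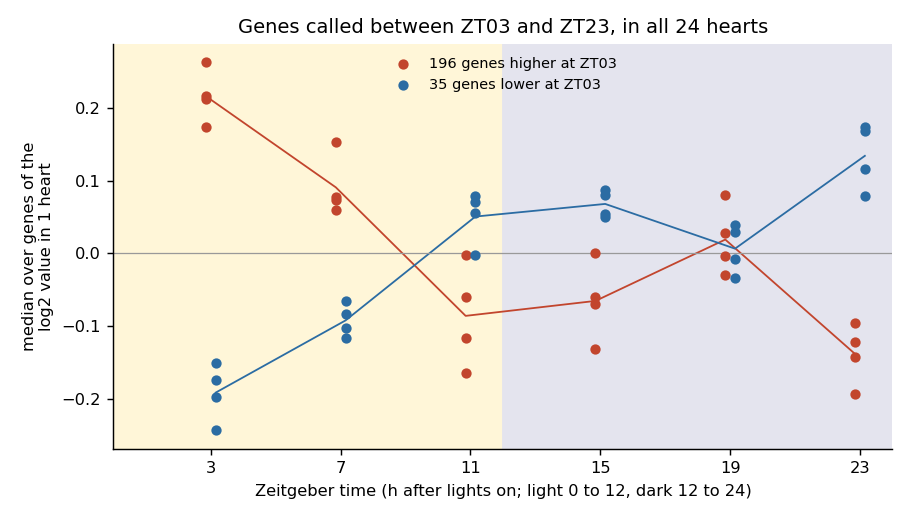
Each point is the median of the log2 values of the called genes in 1 of 24 hearts, by Zeitgeber time (yellow background light, violet dark), in red for the 196 genes higher at ZT03 and in blue for the 35 lower ones, with lines through the time-point means. The 4 ZT07 hearts lie on the same side of 0 as the ZT03 hearts in both sets, and the ZT11 and ZT15 hearts are at or across 0 with 1 exception, ZT11 replicate 4, in the lower genes.

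The opposite lighting step, from ZT11 to ZT15, shares no heart with the step across lights-on and spans the same 4 h. No gene passed limma's test between ZT15 and ZT11 (0 called, 1603 at an unadjusted p under 0.05). The difference between the 2 steps was therefore tested directly, as ZT03 minus ZT23 less ZT15 minus ZT11, and passed for 53 genes (0.239%), of which 33 were also among the 231. In 35 the dark-to-light step was the more positive one and in 18 the more negative. These counts rest on single hearts. They were 0 without ZT03 replicate 3 (among 0 to 97 over 16 such fits), 2 without ZT11 replicate 2 or 4, 6 without ZT15 replicate 4, 15 without ZT23 replicate 1, 19 without ZT15 replicate 2 and 97 without ZT11 replicate 1, and 0 of the 53 genes passed in all 16.

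Among the genes past this test, Scin had the largest step difference, 1.22 ± 0.17 (limma, adjusted p = 0.013, in 15 of 16 fits that leave out a heart). It averaged 0.45 ± 0.06 at ZT03 and -0.28 ± 0.20 at ZT23, and -0.36 ± 0.05 at ZT15 and 0.14 ± 0.31 at ZT11 (SD, n = 4 hearts each). Its mean was thus higher on the light side of both lighting changes, by 0.72 ± 0.12 across lights-on and, not past the test on its own, with -0.50 ± 0.12 across lights-off. The 2 steps of Fcgrt also had opposite signs, with 0.56 ± 0.13 across lights-on and -0.40 ± 0.13 across lights-off, and so did Agtr1a (0.43 ± 0.10 and -0.25 ± 0.10) and Retreg1, a receptor for autophagy of the endoplasmic reticulum (0.51 ± 0.09 and -0.17 ± 0.09). Mtdh had 0.65 ± 0.09 across lights-on and -0.04 ± 0.09 across lights-off. In the other direction Bst2, an antiviral membrane protein, had -0.50 ± 0.13 and 0.47 ± 0.13, and the stress-induced Ier3 had -0.43 ± 0.12 and 0.40 ± 0.12. Hspa8 had -0.47 ± 0.10 and 0.23 ± 0.10, Fxyd5, a regulator of the sodium pump, -0.29 ± 0.08 and 0.39 ± 0.08, and Rtn4r, a Nogo receptor, -0.25 ± 0.08 and 0.42 ± 0.08. Bst2, Ier3, Fxyd5 and Rtn4r passed the test of the step difference and not that of ZT03 against ZT23. Fxyd5 and Rtn4r passed in 12 and 13 of the 16 fits, Mtdh in 8, Fcgrt in 7, Retreg1 and Bst2 in 5, Agtr1a in 3, and Hspa8 and Ier3 in 2. The genes of this paragraph were named as the 5 largest step differences in each direction, a choice that favours steps of opposite sign. The light-to-dark step had the opposite sign for 85 of the 196 higher genes and 17 of the 35 lower genes.

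**Figure D5:**
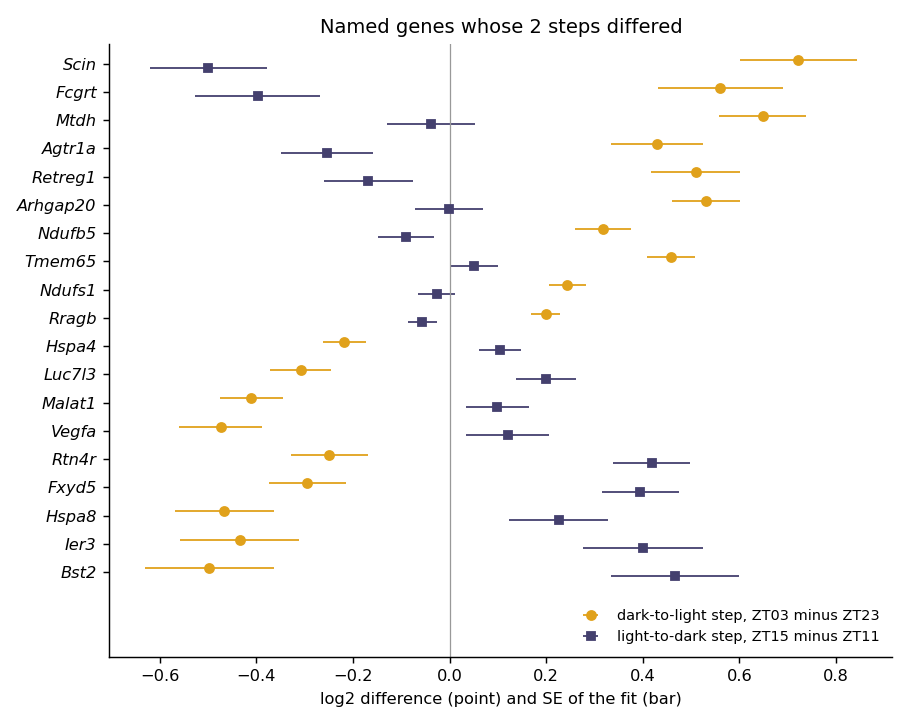
Log2 differences with the SE of the fit for the 19 named genes past the test of the step difference, across lights-on (ZT03 minus ZT23, yellow circles) and across lights-off (ZT15 minus ZT11, violet squares). Scin, at the top, has 0.72 across lights-on and -0.50 across lights-off, and Bst2, at the bottom, has -0.50 and 0.47.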

How the data were processed

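Per the labels' protocols, total RNA of snap-frozen hearts was extracted with TRIzol and biotinylated cRNA was hybridised to 1-colour Affymetrix arrays. The deposited log values, taken as log2, had been centred by the authors on each feature's median over the 24 arrays (largest absolute median 5e-07, from the values). For summarization, normalization, log base and scan batches, nothing is given in the sources used. With a natural log every size would be 1.44 times larger and the tests the same. The brighter class was read from the spacing of the deposited numbers (within 1e-07 of the coarser grid that single precision gives to numbers of 8 to 16 before centring) and holds 666 of 34351 features. Arrays give no read depth, and 4 hearts per time point limit the precision.

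Features with 1 symbol in the platform annotation (23521; 1814 had several and 9016 none) were averaged per gene to 22180 genes, which concerned 2423 features of 1082 genes. The symbols of 23328 features were matched to RefSeq GRCm38.p6 and 0 differed. limma 3.58.1 in R 4.3.3 fitted 6 time-point means to 24 hearts (lmFit, eBayes, 18 residual degrees of freedom), with the contrasts ZT03 minus ZT23 and that difference less ZT15 minus ZT11, and Benjamini-Hochberg adjustment at 0.05. In simulated data with 200 of 22180 genes changed at ZT03, the first contrast recovered 26.5% of changes of 0.2 and 83% of changes of 0.4, and the second 14% and 64%. The simulated noise was normal and independent between genes, so it held no deviation shared by many genes of 1 heart.

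The comparison, its genes and the 33 pathway and 13 cell type lists were chosen with earlier results of these data known. Named genes are all core clock genes, the 10 with the smallest p, the 12 largest called differences in each direction, called members of each list (or the 2 with the smallest p where none was called), and the 5 largest step differences in each direction; unnamed gene models (Gm, Rik and the like) enter the counts only. Same-numbered hearts at ZT03 and ZT23 had correlated deviations of -0.15, 0.069, 0.055 and -0.23, so replicate numbers were not used to pair hearts.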

Additional observations from a re-analysis of the deposited data

Results flagged for a closer look

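In 11 of 244 groups of 4 hearts of a named gene, 1 heart lay far from the other hearts of its time point by Dixon's criterion, where chance gives about 1 in 20. At ZT03, these were Dbp in replicate 1 (0.23, the others -0.08 to -0.06), Mospd1 in replicate 2 (0.22, the others 0.41 to 0.43), Cd14 in replicate 2 (0.31, the others -0.02 to 0.01), Cacna2d1 in replicate 4 (-0.0092, the others 0.26 to 0.31) and Bst2 in replicate 4 (-0.68, the others -0.25 to -0.18). At ZT23, they were Clock in replicate 1 (-0.0041, the others 0.11 to 0.13), Nr1d2 in replicate 1 (-0.64, the others -0.21 to -0.18), Ndufb5 in replicate 2 (-0.011, the others at -0.19), Mmp8 in replicate 2 (0.060, the others at 0.01), Cryab in replicate 3 (-0.12, the others 0.01 to 0.03) and Aldh2 in replicate 3 (-0.16, the others 0.14 to 0.17).

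For 19 named genes the dark-to-light step differed from the light-to-dark step by limma's test of the difference itself. The difference was positive for Scin (1.22), Fcgrt (0.96), Mtdh (0.69), Agtr1a (0.68), Retreg1 (0.68), Arhgap20 (0.53), Tmem65 (0.41), Ndufb5 (0.41), Ndufs1 (0.27) and Rragb (0.26). It was negative for Bst2 (-0.96), Ier3 (-0.83), Hspa8 (-0.69), Fxyd5 (-0.69), Rtn4r (-0.67), Vegfa (-0.59), Malat1 (-0.51), Luc7l3 (-0.51) and Hspa4 (-0.32).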

How the results depend on the processing

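The count of 231 genes between ZT03 and ZT23 was 96 (91 higher and 5 lower, 59 shared) when only the 8 hearts were fitted. In that fit 4 of the 35 lower genes and 19 of the 57 called named genes passed. With array weights the count was 404 (230 shared). It was 246 with features tested apart, 262 after quantile normalization, 251 with array medians set to 0, 208 with a robust prior and 313 without ZT11 replicate 1 and ZT19 replicate 2. Leaving out 1 heart gave 53 to 238. The count fell below 231 by over 1.5 times without ZT03 replicate 1 (114), 2 (108) or 3 (53) and without ZT23 replicate 1 (93), 2 (118) or 4 (109). The 53 step differences were 14 with only 16 hearts, 100 without ZT11 replicate 1 and ZT19 replicate 2, and 0 to 97 with 1 heart left out. The cause of these losses and gains was not tested in either count. With the replicate number as a block the counts were 204 and 36, and 46 of the 57 called named genes passed. No called named gene changed sign under the alternatives that keep 1 value per gene, while 1 of the 2 features of Aldh2, tested apart, had the opposite sign (0.23). A filter on dim features was not run, since centred values hold no signal over background, and scan batches were not given.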
